A study of Mus musculus with 62 samples.

Results

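Mest, Sfrp5, Bmp3, Npr3 and Trp53inp2 are genes whose transcripts are known to rise when mice expand their fat mass. They were picked by name from that knowledge, with earlier results of these data also known. They were matched to the count table by Ensembl identifier, and are 5 of the 48795 genes in it. All 5 were found. Their levels were followed in RNA sequencing of visceral fat (VAT, the gonadal pad), subcutaneous fat (SAT, the inguinal pad) and liver of Fam13a knockout (KO) and wild-type (WT) mice. Males gave all 3 tissues on chow and on high-fat diet (HFD), with 4 libraries for each combination of diet, tissue and genotype. Females gave VAT and SAT on HFD alone, with 4 KO and 3 WT libraries per depot. This made 62 libraries in 16 groups, of which 46 were adipose. All mice were on a C57BL6 background. The KO line came from KOMP embryonic stem cells in which exon 5 of Fam13a was flanked by LoxP sites, and KO is a whole-body label that names no tissue-restricted Cre. HFD was fed from 8 to 22 weeks of age, for 14 weeks, while the age of the chow mice that were sequenced is not given in the sources used here. Chow males in other measurements of the study were younger than the HFD mice, and if the same holds here, age and diet cannot be told apart.

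An adipose depot grows by filling existing adipocytes with lipid and by recruiting new ones, and a small set of adipose transcripts is known to differ with fat mass even between mice of identical genotype. Mest encodes an imprinted protein of the endoplasmic reticulum with an alpha/beta-hydrolase fold, expressed from the paternal allele and raised early in fat expansion. Sfrp5 is a secreted frizzled-related protein that binds Wnt ligands outside the cell. Bmp3 is a secreted member of the bone morphogenetic protein (BMP) family that can oppose other BMPs. Npr3 is the natriuretic peptide clearance receptor, which takes up and removes the peptides that drive lipolysis through Npr1. Trp53inp2 (also called DOR) takes part in autophagosome formation and is a coactivator of thyroid hormone receptor.

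The 5 genes lie on 5 chromosomes of GRCm38. Mest (ENSMUSG00000051855.15) is at chr6:30723547-30748465 on the plus strand and Sfrp5 (ENSMUSG00000018822.7) at chr19:42197971-42202252 on the minus strand. Bmp3 (ENSMUSG00000029335.5) is at chr5:98854415-98884396 on the plus strand and Npr3 (ENSMUSG00000022206.6) at chr15:11839896-11907287 on the minus strand. Trp53inp2 (ENSMUSG00000038375.15) is at chr2:155381059-155389850 on the plus strand. Mest shares 912 exon bases with Copg2, which runs on the opposite strand. Copg2 had a median of 1309.5 counts in adipose libraries against 14350.5 for Mest, and which strand setting the counts used is not given in the sources used here.

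Because the 5 genes varied together, the stretches just upstream of RefSeq starts are shown, on GRCm38.p6, for the 4 genes with an entry (Bmp3 had none). They are chr6:30737800-30738049 for Mest, chr19:42202253-42202502 for Sfrp5, chr15:11907372-11907621 for Npr3 and chr2:155381606-155381813 for Trp53inp2. Each is written 5′ to 3′ on the strand of the gene and is cut back where an annotated exon begins within it. The Mest and Trp53inp2 stretches lie inside the gene spans given above, after earlier annotated starts, and those of Sfrp5 and Npr3 lie outside. For Mest, the stretch before the second of its 3 RefSeq starts is given. Capitals mark GGGCGG, the letters of a GC box, or TGACG, a short form of the cyclic AMP response element, or the CCAAT box, each on either strand.
Mest: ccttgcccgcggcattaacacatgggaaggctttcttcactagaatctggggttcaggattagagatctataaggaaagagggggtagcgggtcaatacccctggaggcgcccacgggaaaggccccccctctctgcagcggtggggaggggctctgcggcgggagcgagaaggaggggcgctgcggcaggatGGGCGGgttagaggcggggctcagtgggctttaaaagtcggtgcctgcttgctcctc
Sfrp5: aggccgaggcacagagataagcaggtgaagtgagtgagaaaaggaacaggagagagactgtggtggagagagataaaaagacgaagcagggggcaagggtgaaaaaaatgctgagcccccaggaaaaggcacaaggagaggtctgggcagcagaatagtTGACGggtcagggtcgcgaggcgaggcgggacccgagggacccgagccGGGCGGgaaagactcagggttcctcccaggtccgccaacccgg
Npr3: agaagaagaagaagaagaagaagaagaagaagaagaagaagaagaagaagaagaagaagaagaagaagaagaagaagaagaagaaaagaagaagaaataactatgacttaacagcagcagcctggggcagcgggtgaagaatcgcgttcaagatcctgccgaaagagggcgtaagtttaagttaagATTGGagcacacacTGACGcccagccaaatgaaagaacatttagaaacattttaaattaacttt
Trp53inp2: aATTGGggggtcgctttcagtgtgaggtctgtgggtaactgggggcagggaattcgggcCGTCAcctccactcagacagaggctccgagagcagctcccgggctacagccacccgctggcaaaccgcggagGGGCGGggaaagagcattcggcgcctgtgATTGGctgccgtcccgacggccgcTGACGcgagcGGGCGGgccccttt
Both strands were searched. A GC box stood 57 bases before the start in Mest, 43 bases before it in Sfrp5, and 119 and 56 bases before it in Trp53inp2. These letters are present in 32.7% of the 32851 RefSeq stretches of 250 bases, while Npr3 held none. TGACG was found in Sfrp5, Npr3 and Trp53inp2 and in 17.8% of all stretches. CCAAT was found on the opposite strand in Npr3 and Trp53inp2 and in 33.8% of all stretches. TATAAA (12.4% of all stretches), AGGTCA (14.02%), CACGTG (6.02%), TGACGTCA, which contains TGACG (1.55%), TTGCGCAA (0.164%) and CTTTGAT (3.21%) were in none of the 4 printed stretches. The GC content was 62.4% in Mest, 59.6% in Sfrp5, 38.8% in Npr3 and 67.3% in Trp53inp2. The stretch before the first Mest start, at chr6:30733256-30733453, held none of the letters searched. The Npr3 stretch opens with a long AGA repeat. No motif was shared by all 4 stretches.

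Libraries held 4959783 to 28723319 gene counts (median 21694089), and a ribosomal RNA gene took between 0.0127% and 75.4% of them (median 1.06%). The genotype labels were checked with Fam13a. Its level in CPM (counts scaled to the library total) was 234 to 282 in the 4 WT and 80.7 to 185 in the 4 KO libraries of male chow SAT, with no overlap, but the ranges overlapped in male VAT on both diets and in both female depots. KO males held less Fam13a in fat (log2 fold change −1.12, adjusted p = 0.0416), and reads from the remaining exons are counted in KO too. Adipocyte markers were high in every adipose library (8 genes, 4610 to 17640 CPM in sum). In male SAT, however, the 8 lymph node markers summed to 272 to 858 CPM in the 4 chow WT libraries, to 515 CPM in chow KO replicate 4 and to 296 CPM in HFD WT replicate 2, against 6.19 to 35.2 CPM in the others. The inguinal pad encloses a lymph node. Skeletal muscle markers summed to 16567 CPM in male chow SAT KO replicate 1 and epididymis markers to 12522 CPM in male chow VAT KO replicate 1. The tissues of 1 mouse are not linked in the labels, and replicate numbers here only follow sample order within a group. VAT and SAT libraries of 1 mouse may therefore enter a fit as if independent. The p-values rest on the spread between libraries. They could be too small for genotype across depots and for the correlations. Male HFD SAT KO replicate 1 and male HFD VAT WT replicate 1 were run on a second flow cell. On the flow cell of the other libraries chow was on lanes 1 to 3 (VAT on lane 1, SAT on lane 2) and HFD on lanes 4 to 8, with male VAT on lane 4, male SAT mostly on lane 5 and female fat on lanes 6 to 8. Lane thus followed diet, sex and most of depot, and cannot be told apart from them. In whole tissue, fewer cells of a type and less RNA per cell cannot be told apart either.

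The 5 genes were adipose transcripts, with 1 exception. In TPM, a level per length, the medians over the 46 adipose libraries were 520 for Mest, 448 for Npr3, 328 for Trp53inp2, 162 for Sfrp5 and 57.0 for Bmp3. In liver Mest reached at most 1.71 TPM and Npr3 at most 1.32 TPM, and Sfrp5 and Bmp3 gave at most 3 and 6 counts in any library. Trp53inp2 was the exception, at 14.3 to 58.9 TPM in liver. The order within fat was not fixed. In male chow SAT of WT mice the mean was 106 TPM for Trp53inp2, above 68.7 TPM for Mest and 54.7 TPM for Npr3, and the libraries of Mest and Npr3 overlapped there.

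Levels of these genes spread widely across adipose libraries. From the lowest to the highest of 46 libraries, Mest spanned 158-fold in CPM (7.43 to 1176), Sfrp5 60.4-fold (2.83 to 171), Bmp3 37.8-fold (8.21 to 310.3), Npr3 22.2-fold (97.1 to 2157) and Trp53inp2 7.92-fold (125 to 986). Most of that range lay in males on chow. In male HFD SAT of WT mice the 4 libraries of Mest differed by 1.18-fold at most, while the 4 libraries of male chow SAT of KO mice differed by 95.6-fold.

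**Figure D1:**
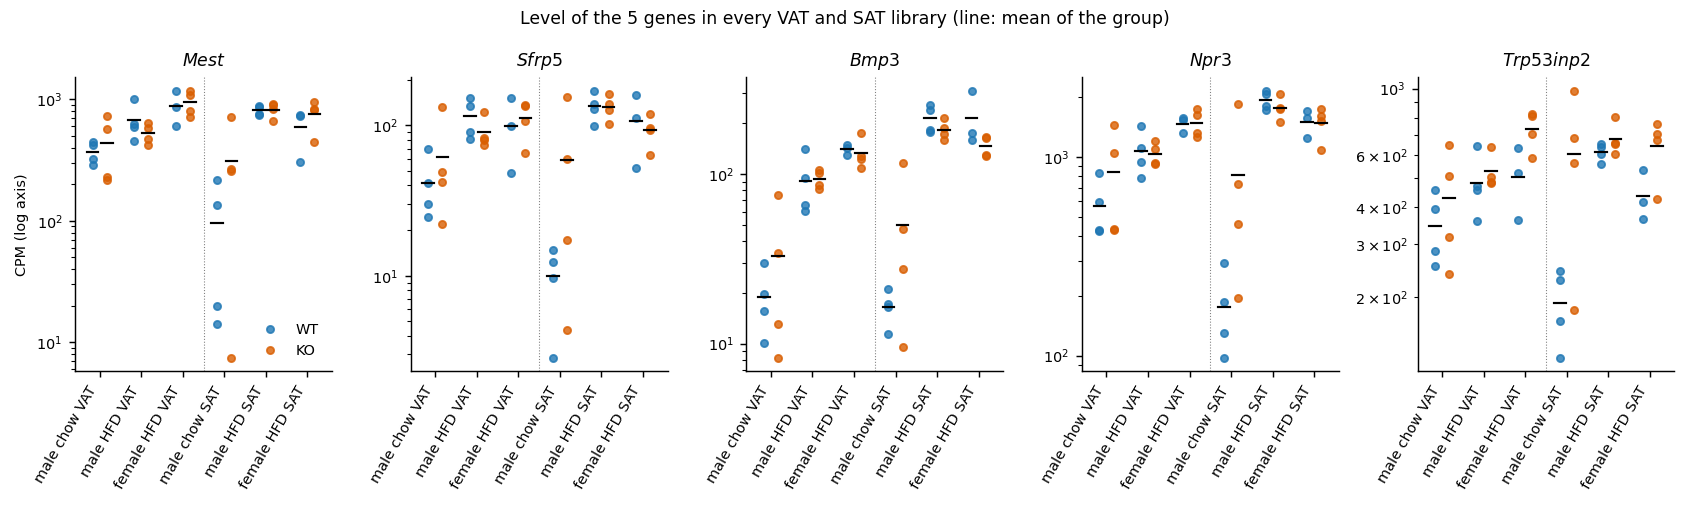
Level of each gene in CPM (log axis) in every adipose library, with WT and KO libraries as points and a line at the mean of each group of 3 or 4. The lowest values of all 5 genes are in male chow libraries, and in male chow SAT the 4 WT libraries of each gene lie below all 4 HFD WT libraries.

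The diet comparison asked whether these genes differed between males on HFD and on chow. In SAT all 5 rose. Bmp3, the BMP antagonist, was 17.1, 21.1, 11.5 and 16.4 CPM in the chow WT libraries and 176, 181, 255 and 237 CPM in the HFD WT libraries. In KO mice it was 47.5, 116, 27.7 and 9.58 CPM on chow and 172, 159, 213 and 187 CPM on HFD. The diets did not overlap in either genotype, and Bmp3 rose 6.82-fold (log2 fold change 2.77, SE 0.45, adjusted p = 0.000279, edgeR's quasi-likelihood test with Benjamini-Hochberg adjustment over all genes, n = 16).

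Npr3, the receptor that clears natriuretic peptides, was 186, 291, 97.1 and 130.2 CPM in chow WT libraries of SAT and 1728, 1807, 2157 and 2065 CPM in HFD WT libraries. In KO mice it was 728, 1848, 459 and 194 CPM on chow and 1760.4, 1504, 2069.9 and 1750.3 CPM on HFD. Chow KO replicate 2 lay inside the HFD range. Across genotypes Npr3 rose 4.94-fold (log2 fold change 2.30, SE 0.50, adjusted p = 0.00200).

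Mest, the imprinted gene, was 19.9, 135, 14.1 and 217 CPM on chow in WT SAT and 737, 748, 868 and 871 CPM on HFD. The KO libraries held 266, 710.1, 257 and 7.43 CPM on chow and 894, 657, 905 and 822 CPM on HFD. The chow libraries of Mest thus differed far more among themselves than the HFD libraries, and replicate 2 of chow KO overlapped them. Mest rose 4.68-fold (log2 fold change 2.23, SE 0.70, adjusted p = 0.0162).

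Sfrp5, the Wnt-binding protein, held 9.69, 14.9, 2.83 and 12.4 CPM on chow in WT SAT and 129, 99.1, 139 and 171 CPM on HFD. Its KO libraries held 59.8, 155, 17.4 and 4.35 CPM on chow and 127, 102, 161 and 139 CPM on HFD. Trp53inp2, the autophagy factor, was 165, 244, 125 and 227 CPM on chow in WT SAT and 559.6, 638, 650.2 and 603 CPM on HFD. In KO SAT Trp53inp2 was 565, 986, 685 and 181 CPM on chow and 649.7, 605, 801 and 658 CPM on HFD, so that for this gene the highest library of all was on chow. Sfrp5 rose 5.41-fold (log2 fold change 2.43, SE 0.66, adjusted p = 0.00781) and Trp53inp2 1.92-fold (log2 fold change 0.94, SE 0.32, adjusted p = 0.0253). Of all 17292 genes tested in SAT, 28.5% were higher and 29.6% lower on HFD. The 5 members called higher and 0 called lower stand beside those shares. As the members were chosen with earlier results of these data known, these counts are no independent support.

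Within genotypes the SAT picture differed in size. In WT mice alone all 5 genes rose on HFD, by 13.7-fold for Sfrp5, 12.9-fold for Bmp3, 10.97-fold for Npr3, 8.30-fold for Mest and 3.22-fold for Trp53inp2, with 28.5% of genes called higher. In KO mice alone 0 of 5 passed with edgeR, with 8.19% of genes called higher, and Bmp3 alone had an unadjusted p under 0.05. The KO log2 differences were 1.84 for Bmp3 (adjusted p = 0.1005), 1.38 for Mest, 1.14 for Sfrp5, 1.11 for Npr3 and 0.15 for Trp53inp2. Every HFD library lay above every chow library for 5 of 5 genes in WT SAT, against 21.9% of all genes, and for Bmp3 alone in KO SAT, against 10.4% of all genes.

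The test of that difference is the genotype by diet interaction. In SAT the log2 interaction was −2.34 for Npr3 (SE 0.71, adjusted p = 0.173), −2.62 for Sfrp5 (adjusted p = 0.231), −1.84 for Bmp3 (adjusted p = 0.219), −1.52 for Trp53inp2 (adjusted p = 0.192) and −1.65 for Mest (adjusted p = 0.502). None of the 5 passed with edgeR, and 0.0173% of all genes did. Unadjusted p was under 0.05 for 4 of them, DESeq2 called 3 and limma-voom 0. Without male chow SAT KO replicate 4, which held lymph node markers, edgeR called 4 of the 5: Npr3 −2.67 (adjusted p = 0.00856), Trp53inp2 −1.84, Sfrp5 −3.03 and Bmp3 −2.20. With edgeR the call in SAT therefore rests on whether that library is counted, and with it counted the tools differed. In that fit the 3 chow KO libraries held 6.19 to 35.2 CPM of lymph node markers and the 4 chow WT libraries 272 to 858 CPM, so genotype on chow and lymph node content cannot be told apart there. Without all libraries rich in these markers no chow WT library was left and the interaction could not be fitted. Ribosomal RNA was uneven by genotype too, with a median of 16.4% of counts in male chow SAT of WT mice and 1.63% in KO.

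**Figure D2:**
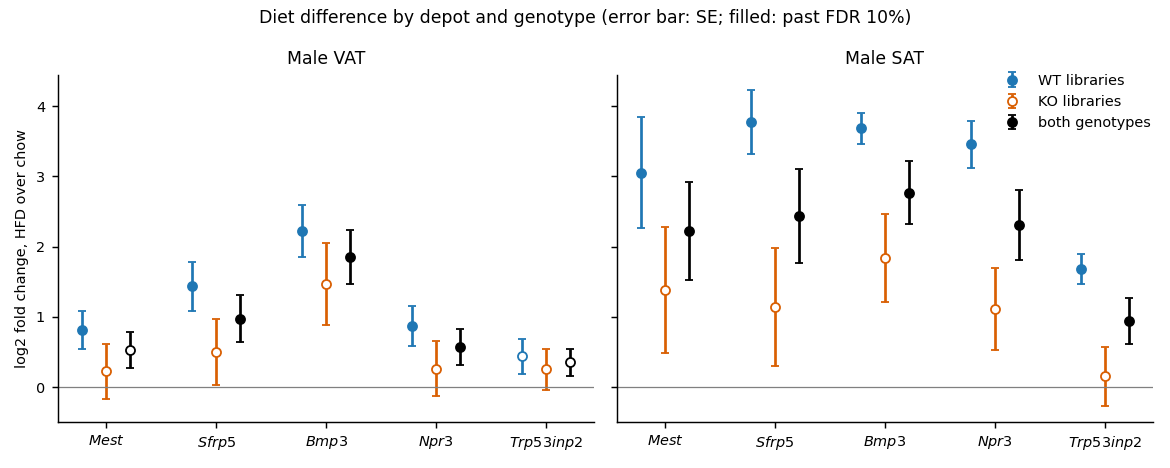
Log2 fold change of HFD over chow in male VAT and male SAT for each gene, in WT libraries, in KO libraries and in both, with the SE as error bar and filled points where the gene passed an FDR of 10%. In SAT the WT points lie between 1.69 and 3.77 and are filled, and the KO points lie between 0.15 and 1.84 and are open.

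Lymph node markers moved with diet and genotype in SAT, since they were high in 5 of the 8 male chow libraries and 1 of the 8 HFD libraries. All 8 of these markers fell on HFD (median log2 difference −3.61). With their score as a covariate, Bmp3 (log2 difference 1.97, adjusted p = 0.00209), Npr3 (1.53, adjusted p = 0.0209) and Sfrp5 (1.36, adjusted p = 0.0616) remained called in SAT. Mest (1.34, adjusted p = 0.147) and Trp53inp2 (0.38, adjusted p = 0.411) were not. When the 6 male SAT libraries with over 100 CPM of these markers were left out, 3 chow KO libraries and no chow WT library remained on the chow side, with 7 HFD libraries. Bmp3 (1.49, adjusted p = 0.0315) and Mest (0.98, adjusted p = 0.0647) were then called, and Npr3 (0.79), Sfrp5 (0.75) and Trp53inp2 (−0.15) were not. HFD WT replicate 2, with 296 CPM of lymph node markers, held 181 CPM of Bmp3, 748 CPM of Mest and 1807 CPM of Npr3, within the range of the other HFD libraries, and its Sfrp5 (99.1 CPM) was the lowest on HFD. Other markers moved with diet in SAT as well. Endothelium markers rose in 4 of 5 (sum of 297 to 503 CPM on chow and 459 to 710 CPM on HFD). Of 7 fibroblast and preadipocyte markers 4 rose and 2 fell (2132 to 4244 CPM and 3543 to 5987 CPM). Hepatocyte markers rose in 6 of 6 (6.96 to 35.2 CPM and 13.3 to 205 CPM). Macrophage markers rose in 4 of 7 and fell in 0 (439 to 1012 CPM and 539.7 to 1186 CPM). Their part in the member values was not tested. Ribosomal RNA passed 10% of counts in WT replicates 1, 2 and 4 and KO replicate 1 of male chow SAT. No male HFD SAT library passed it. The former held 14.4% to 22.6% ribosomal RNA and 9100628 to 10901189 counts. Male HFD SAT held at most 7.27% and at least 15212759 counts. Ribosomal RNA and depth thus moved partly with diet in SAT, and on chow partly with genotype. Without the libraries rich in it, replicate 3 was the only chow WT library left. The log2 difference was then 2.38 for Bmp3 and 1.74 for Npr3, and Mest, Sfrp5 and Trp53inp2 were not called.

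**Figure D3:**
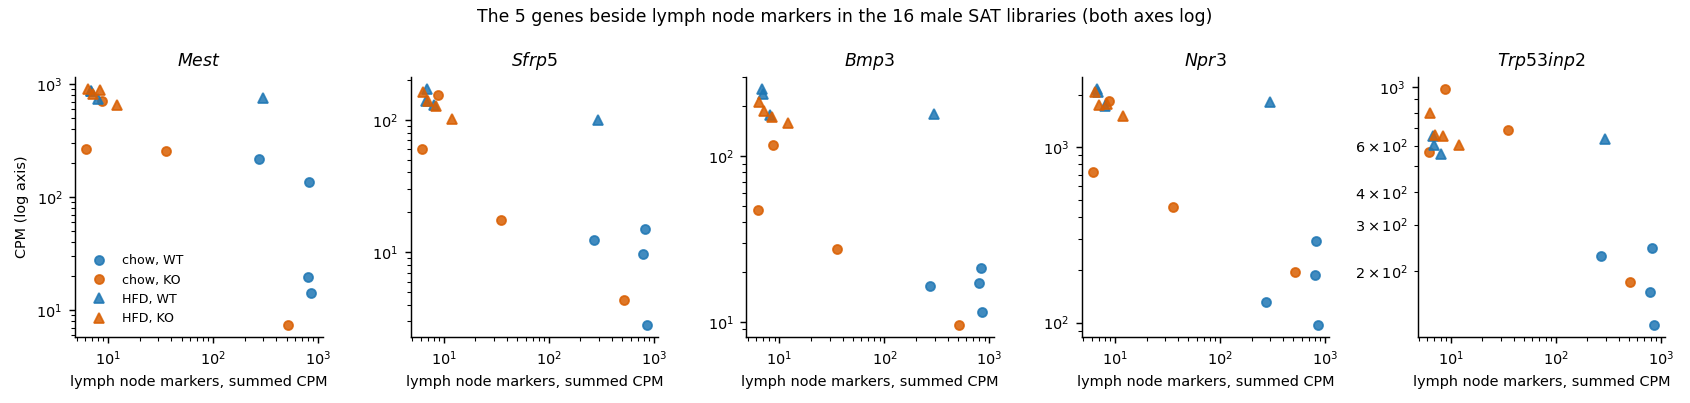
Level of each gene in CPM against the summed CPM of 8 lymph node markers in the 16 male SAT libraries, both on log axes, with diet as symbol and genotype as colour. The 4 chow WT libraries and 1 chow KO library lie at the right, from 272 to 858 CPM of markers, with the lowest values of Npr3, and 1 HFD library lies at 296 CPM of markers.

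In VAT the same comparison gave smaller differences. Bmp3 was 29.9, 15.5, 10.02 and 19.5 CPM on chow in WT mice and 60.8, 141, 94.8 and 65.3 CPM on HFD. KO mice held 13.1, 75.5, 34.0 and 8.21 CPM on chow and 100.8, 81.6, 85.5 and 106 CPM on HFD. The diets were again apart in both genotypes, by a narrow gap in KO, and Bmp3 rose 3.61-fold (log2 fold change 1.85, SE 0.39, adjusted p = 0.00173). Sfrp5 was 70.1, 41.4, 24.5 and 29.9 CPM on chow in WT mice and 135, 153, 90.4 and 81.3 CPM on HFD. In KO mice Sfrp5 was 42.0, 133, 49.0 and 21.99 CPM on chow and 74.1, 79.7, 83.0 and 123 CPM on HFD, with overlap through chow replicate 2. It rose 1.97-fold (log2 fold change 0.98, SE 0.34, adjusted p = 0.0336).

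Npr3 in VAT was 827, 592, 430.1 and 424 CPM on chow in WT mice and 1108, 1424, 939.8 and 785 CPM on HFD. In KO mice Npr3 was 427, 1442, 1051 and 431 CPM on chow and 1099.9, 919, 929 and 1196 CPM on HFD, and the diets overlapped in both genotypes. It rose 1.49-fold (log2 fold change 0.57, adjusted p = 0.0988), a call lost without any of 12 of the 16 libraries taken singly. Mest (0.53, adjusted p = 0.125) and Trp53inp2 (0.35, adjusted p = 0.178) did not pass in VAT. For Mest the 8 chow libraries ran from 215 to 729 CPM (median 371) and the 8 HFD libraries from 416 to 1003 CPM (median 583). For Trp53inp2 they ran from 238 to 647 CPM (median 355) on chow and from 358 to 642 CPM (median 484) on HFD. Of 17330 genes tested in VAT 21.0% were higher and 23.2% lower on HFD, against 3 and 0 of the 5.

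In WT mice alone, VAT on HFD held more Bmp3 (log2 difference 2.22), Sfrp5 (1.43), Npr3 (0.87) and Mest (0.81), so that 4 of 5 were called against 15.2% of all genes. Trp53inp2 (0.44, adjusted p = 0.236) was not called. In KO mice alone 0 of 5 passed with edgeR (13.6% of genes were higher), and Bmp3, the only member with an unadjusted p under 0.05, came nearest (1.47, adjusted p = 0.107). The HFD and chow libraries were fully apart for Mest, Sfrp5 and Bmp3 in WT VAT (12.9% of all genes) and for Bmp3 in KO VAT (14.2%). The genotype by diet interaction in VAT passed for none of the 5 with edgeR, DESeq2 or limma-voom, nor at an unadjusted p under 0.05, with 0.00577% of all genes called. Adipocyte markers moved in VAT the other way from these genes. All 8 fell on HFD (median log2 difference −0.78) while all 7 macrophage markers rose (median 2.75). Of 7 fibroblast and preadipocyte markers 4 rose and 1 fell. Their sums were 1358 to 2578 CPM on chow and 2875 to 5384 CPM on HFD, with no overlap. Hepatocyte markers rose in 4 of 6 and fell in 0. Markers of endothelium (4 of 5), mesothelium (5 of 6) and mammary and skin epithelium (4 of 4 tested) fell, and 0 rose. The part of these cell types in the member values was not tested. With the adipocyte score as covariate Bmp3 (1.93, adjusted p = 0.0337) and Trp53inp2 (0.81, adjusted p = 0.0387) were called in VAT, and Sfrp5 (0.94, adjusted p = 0.202) and Npr3 (0.78, adjusted p = 0.173) were not. Epididymis markers, at 12522 CPM in 1 chow library, fell as well (5 of 5 tested). Without the libraries rich in them Bmp3 (1.66) and Sfrp5 (0.89) were called and Npr3 (0.46, adjusted p = 0.204) was not.

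Liver served as a tissue outside fat. Npr3 there was 3.54, 8.61, 1.45 and 5.33 CPM on chow in WT mice and 5.31, 3.88, 3.81 and 3.48 CPM on HFD. In KO liver it was 7.70, 9.58, 6.66 and 4.39 CPM on chow and 3.33, 3.69, 4.04 and 4.69 CPM on HFD. Npr3 fell 1.54-fold (log2 fold change −0.62, SE 0.24, adjusted p = 0.0520), opposite to its direction in fat, from 4 to 152 counts per library. The diets overlapped in both genotypes. The call was lost without any of 4 of the 16 libraries. Of all genes tested in liver 20.2% were lower on HFD. Mest (0.04) and Trp53inp2 (−0.15) did not pass, and Sfrp5 and Bmp3 were too low to be tested.

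Whether the diet difference depended on the depot was tested in the 32 male adipose libraries. The log2 interaction, VAT less SAT, was −1.52 for Npr3 (SE 0.56, adjusted p = 0.0411), the only member called, with 17.6% of genes called in this direction. Mest gave the same size with a wider error (−1.51, SE 0.74, adjusted p = 0.129), followed by Sfrp5 (−1.11), Bmp3 (−0.85) and Trp53inp2 (−0.46). All 5 values were negative, 1 of them beyond the spread of libraries. The Npr3 value was −0.86 (adjusted p = 0.317) with the lymph node score as covariate and −0.90 (adjusted p = 0.317) with the adipocyte score. Without male chow SAT KO replicate 2 the count of members called went from 1 to 4.

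The depot comparison set VAT against SAT. Over all males only Bmp3 differed, 1.68-fold lower in VAT (log2 fold change −0.75, SE 0.30, adjusted p = 0.0571). 14.7% of genes were lower in VAT and 20.4% higher. Without male chow SAT KO replicate 2 the Bmp3 difference was −0.50 (adjusted p = 0.184). On HFD alone, where libraries spread less, all 5 were lower in VAT, against 19.5% of genes. Bmp3 was 60.8 to 141 CPM in HFD VAT (median 90.2) and 159 to 255 CPM in HFD SAT (median 184), with no overlap (log2 difference −1.09). Npr3 was 785 to 1424 CPM in HFD VAT (median 1019.9) and 1504 to 2157 CPM in HFD SAT (median 1784), also with no overlap (−0.81). The differences of Mest (−0.45), Sfrp5 (−0.38) and Trp53inp2 (−0.35) came with overlapping libraries. HFD VAT was also where adipocyte markers were lowest (4610 to 9628 CPM in sum, against 8822 to 14369 CPM in HFD SAT) and macrophage markers highest (1489 to 3636 CPM against 539.7 to 1186 CPM, with no overlap). On chow alone 0 of 5 differed with edgeR, against 32.1% of genes in either direction, with log2 differences from −0.24 for Bmp3 to 1.18 for Mest. Lymph node markers summed to 6.19 to 858 CPM (median 393) in male chow SAT and to 6.95 to 18.9 CPM in male chow VAT. Their part in the chow comparison was not tested.

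Females on HFD showed no depot difference that passed. Of 5 members 0 were called with edgeR, DESeq2 or limma-voom, none had an unadjusted p under 0.05, and 27.4% of genes were called in either direction. Bmp3 was 108 to 173 CPM in female VAT (median 129) and 128 to 310.3 CPM in female SAT (median 163), with a log2 difference of −0.35 (SE 0.16, adjusted p = 0.151). Mest was 605 to 1176 CPM in female VAT (median 868) and 303 to 951 CPM in female SAT (median 733), with a log2 difference of 0.42 (SE 0.23, adjusted p = 0.220).

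Female and male fat on HFD were compared within each depot. In VAT, females held more Npr3 (1260.0 to 1731 CPM, median 1538) than males (785 to 1424 CPM, median 1019.9), 1.43-fold with overlap (log2 fold change 0.51, SE 0.12, adjusted p = 0.00515). Female VAT also held more Bmp3 (108 to 173 CPM, median 129) than male VAT (60.8 to 141 CPM, median 90.2), 1.504-fold (log2 fold change 0.59, adjusted p = 0.00841). Mest was 1.59-fold higher in female VAT (log2 fold change 0.67, adjusted p = 0.0151). Sfrp5 (0.09) and Trp53inp2 (0.31, adjusted p = 0.127) did not pass, and 19.5% of all genes were higher in female VAT. With the adipocyte marker score as covariate 0 of the 5 were called with edgeR in VAT. That score differed between the sexes, since adipocyte markers summed to 9801 to 15429 CPM in female VAT against 4610 to 9628 CPM in male VAT, and macrophage markers to 556 to 893 CPM against 1489 to 3636 CPM. In SAT, Npr3 was 1.23-fold lower in females (log2 fold change −0.30, SE 0.12, adjusted p = 0.0806), as were 13.1% of genes. That count fell to 0 without any of 8 of the 15 libraries, and the other 4 members did not pass there. Female SAT also held 116 to 270.3 CPM of mammary and skin epithelium markers against 0.109 to 6.55 CPM in male HFD SAT, and 33.7 to 65.5 CPM of mesothelium markers against 0.808 to 1.83 CPM, and their part in this difference was not tested.

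**Figure D4:**
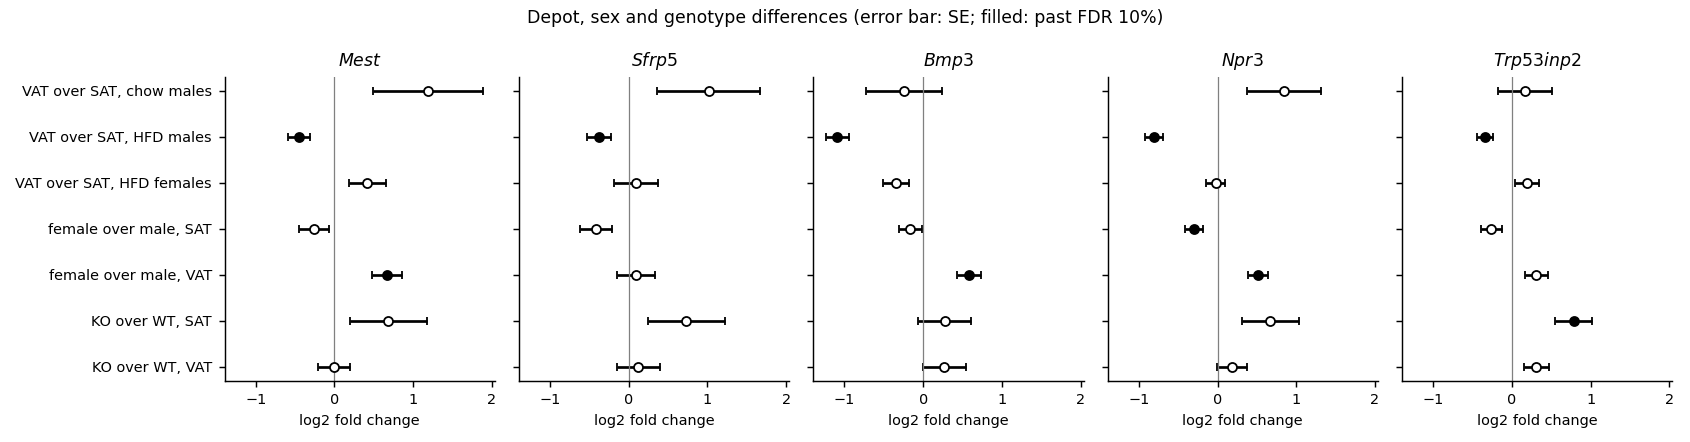
Log2 fold change with its SE for VAT over SAT in 3 sets of mice, for females over males in each depot on HFD, and for KO over WT in each depot, with filled points past an FDR of 10%. All 5 genes are filled and below 0 for VAT over SAT in HFD males, and Trp53inp2 in SAT (0.78) is the only filled point of KO over WT.

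The genotype comparison, KO against WT, is the question of the study. In the 32 male adipose libraries 0 of 5 members passed with edgeR, beside 2.62% of genes higher and 1.34% lower in KO. All 5 differences were positive, from 0.31 for Mest to 0.56 for Sfrp5. Trp53inp2 was the only member with an unadjusted p under 0.05 (log2 difference 0.52, adjusted p = 0.181). DESeq2 called 1 member and limma-voom 0. In SAT of both sexes Trp53inp2 rose 1.72-fold in KO (log2 fold change 0.78, SE 0.24, adjusted p = 0.0943), as 3.45% of genes did. Its libraries are those given above for males, and 416, 366 and 532 CPM in female WT SAT against 759, 425, 706 and 672 CPM in female KO SAT. The genotypes overlapped in male chow SAT, in male HFD SAT and in female SAT. The call was lost without any of 19 of the 23 libraries, and with the adipocyte or the lymph node score as covariate. The other members in SAT gave log2 differences of 0.73 for Sfrp5, 0.69 for Mest, 0.67 for Npr3 and 0.27 for Bmp3.

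In VAT of both sexes the KO differences were −0.01 for Mest, 0.12 for Sfrp5, 0.19 for Npr3, 0.27 for Bmp3 and 0.31 for Trp53inp2. With edgeR 0 of 5 passed, 0 had an unadjusted p under 0.05, DESeq2 and limma-voom called 0, and 0.00527% of genes were called. In liver 0 of 3 passed by the same tests and 0.0% of genes did. The genotype by depot interaction in males also called 0 of 5 members and 0.0% of genes, with log2 values from −0.71 for Sfrp5 to −0.06 for Bmp3, no unadjusted p under 0.05 and none called by DESeq2 or limma-voom. Libraries of male chow mice spread in both genotypes. In male chow SAT the ratio of the highest to the lowest of 4 libraries was 95.6 for Mest in KO and 15.3 in WT, 35.6 and 5.28 for Sfrp5, 12.1 and 1.84 for Bmp3, 9.52 and 3.00 for Npr3, and 5.45 and 1.96 for Trp53inp2. In male chow VAT it was 9.20 in KO and 2.99 in WT for Bmp3, 3.38 and 1.95 for Npr3, and 3.38 and 1.54 for Mest. Replicate 2 was the highest and replicate 4 the lowest of the chow SAT KO libraries for each of the 5 genes, and replicate 4 was the one with 515 CPM of lymph node markers. No test of spread was run, and nothing about genotype is read from it.

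The genes varied together from library to library. After the mean of each group was taken out, all 10 pairs correlated over the 46 adipose libraries, with Pearson r from 0.70 to 0.90 and Spearman rho from 0.57 to 0.83 (permutation of libraries within groups, 100000 draws, two-sided, largest adjusted p = 0.00276 over the 10 pairs). For each pair of genes, r was also taken without the pair of libraries farthest from the median of its first gene, in the order listed at the start. This gave r from 0.49 to 0.81, and libraries extreme only in the other gene stayed in. Within VAT alone r was 0.53 to 0.93 and 9 of 10 pairs passed, and within SAT alone r was 0.78 to 0.94 and all 10 passed. Without the male chow SAT libraries r was 0.53 to 0.90 over 38 libraries, and 9 of 10 pairs passed. With the adipocyte marker score regressed out r was 0.71 to 0.90. Libraries share depth, tissue makeup and lane, which enter these 5 and all other genes at once, the same correlations over other gene pairs were not computed, and nothing here is called particular to the members.

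**Figure D5:**
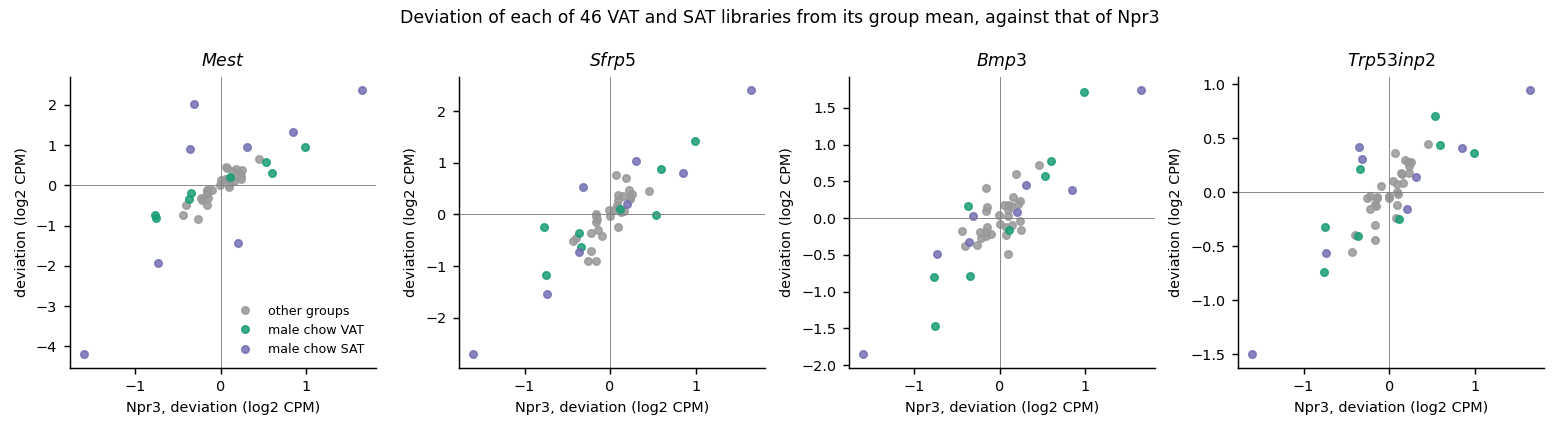
Deviation of each of 46 adipose libraries from its group mean in log2 CPM, for 4 genes against Npr3, with male chow VAT and male chow SAT libraries coloured. Points rise from lower left to upper right in each panel, and the points farthest out are male chow SAT libraries.

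Over all 46 libraries, diet and depot included, the genes whose log2 CPM followed each member most closely were found among 18561 genes. The 3 nearest to Npr3 were Syp (Pearson r = 0.963), Unc79 (0.961) and Cryab (0.959). Cryab, a small heat shock protein, was also nearest to Sfrp5 (0.950), followed by Npr3 (0.944) and Ccdc9b (0.931). Bmp3 lay nearest to Syp (0.935), Lep (0.926), the leptin gene, and Flot1 (0.918). Mest lay nearest to Sfrp5 (0.917), App (0.903) and Tln2 (0.902). Trp53inp2 lay nearest to Flot2 (0.906), Dusp3 (0.906) and Cdr2 (0.897), and none of these 3 was near another member by this rule. The members were not each other's nearest genes throughout, since Bmp3 ranked 501 for Mest, Mest 414 for Bmp3 and Bmp3 480 for Trp53inp2 among the 18561. These r describe libraries that share groups, depth and tissue makeup.

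Relatives of each member were set beside it. In SAT, where Sfrp5 rose 5.41-fold on HFD, 3 other secreted frizzled-related proteins were tested, and their difference from Sfrp5 was not. Sfrp2 rose (log2 fold change 0.43, adjusted p = 0.0382), and Sfrp1 (−0.65, adjusted p = 0.129) and Sfrp4 (0.27, adjusted p = 0.187) did not pass. In VAT Sfrp4 rose (1.41, adjusted p = 0.0065) and so did Frzb (1.59, adjusted p = 0.0624). Per length, Sfrp5 reached 296 TPM in fat against at most 37.1 TPM for Sfrp2 and 24.1 TPM for Sfrp1. Gdf10, the closest relative of Bmp3, was at most 12.01 TPM and did not pass for diet in SAT (0.33) or VAT (0.28). Npr1, the signalling receptor for atrial natriuretic peptide, stayed between 25.8 and 62.6 CPM in fat and did not pass for diet in SAT (0.16) or VAT (−0.31). Npr2, the receptor for C-type natriuretic peptide, fell in VAT (−0.93, adjusted p = 0.0115) and did not pass in SAT (0.15). Trp53inp1 fell in SAT (−0.36, adjusted p = 0.0716), where Trp53inp2 rose. Lep, a marker of fat mass, rose in both depots (3.12 in SAT and 2.16 in VAT). Copg2, the antisense neighbour of Mest, rose in SAT by 0.34 and did not pass in VAT (−0.17).

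The pathways around the members were followed through fixed gene lists. Of 20 Wnt antagonists and receptors tested in SAT, 9 rose and 2 fell on HFD (median log2 difference 0.27, against −0.02 over all genes), led by the receptors Fzd6 (0.85), Fzd4 (1.21) and Fzd5 (0.67). In VAT 7 rose and 4 fell (0.38, against −0.04 over all genes), with Fzd7 (0.89) and the Wnt inhibitor Wif1 (2.98) higher and Ryk (−0.50) lower. Of 20 Wnt ligands, effectors and targets 6 rose and 6 fell in SAT (0.13), with Ctnnb1 (0.63), which encodes beta-catenin, Nkd1 (2.26) and Wnt5a (0.70) higher. In VAT 3 rose and 8 fell (−0.52), with Wnt9a (−0.89) and the target genes Axin2 (−0.86) and Znrf3 (−0.65) lower.

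The list of BMP ligands also counts Inhbb, a subunit of activin B and not a BMP. In SAT 5 of its 10 tested genes rose on HFD and 0 fell (median 0.67), among them Inhbb (2.18), Gdf5 (1.73) and Bmp6 (0.89). In VAT the 1 gene of this list that rose was Inhbb (1.14), and 2 fell (−0.06), namely Bmp4 (−1.05) and Bmp6 (−0.84). Of the BMP receptors and inhibitors 7 rose and 6 fell among 21 in SAT (0.20), and 1 rose and 9 fell among 20 in VAT (−0.25). Fstl1 rose in both depots (1.38 in SAT, 1.32 in VAT), Bambi rose in SAT (0.95) and Fst fell there (−0.92). Chrdl1 (−1.46), which binds BMPs outside the cell, fell in VAT. Of 10 BMP effectors and targets 4 rose and 3 fell in SAT (−0.04), with Smad1 (0.58), Smad6 (1.72) and Id3 (0.73) higher. In VAT 1 rose and 4 fell (−0.30), with Smad9 (−1.82), Id1 (−1.73) and Smad5 (−0.45) lower.

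Of 9 genes of the natriuretic peptide system tested in SAT 4 rose and 0 fell (0.16), among them Mme (1.10), which encodes a peptidase, and the phosphodiesterases Pde9a (1.14) and Pde5a (0.62). In VAT Mme rose (0.59) and Npr2 and Pde2a (−0.83) fell, so that 1 rose and 2 fell (−0.31). Of 23 autophagy partners of Trp53inp2 9 rose and 2 fell in SAT (0.18), with Atg12 (0.55), Becn1 (0.34) and Wipi1 (0.90) higher. In VAT 3 rose and 6 fell (−0.02), with Gabarap (0.38) higher and Gabarapl1 (−0.57) and Atg16l1 (−0.45) lower. The list nearest the members in direction was that of adipocyte size and caveolae, which also holds collagen and protease genes such as Col6a3 and Mmp14. Of its 19 genes 16 rose and 0 fell in SAT (0.98), led by Cavin3 (2.21), Cav2 (1.38) and Cav1 (1.93). In VAT 12 rose and 3 fell (0.48), led by the collagens Col6a3 (1.61) and Col6a2 (1.65) and the protease Mmp14 (1.07). These counts are read against the shares of all genes given above, and the lists too were chosen with earlier results of these data known.

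Between depots in males the lists split by gene, beside 20.4% of all genes higher and 14.7% lower in VAT. Of 21 Wnt antagonists and receptors 6 were higher and 3 lower in VAT, with Sfrp1 (1.83) and Ror1 (0.91) higher and Dkk2 (−1.72) lower. Of 23 Wnt ligands, effectors and targets 3 were higher and 4 lower, with Wnt2b (4.72) higher and Wnt16 (−4.02) and Wnt2 (−2.10) lower. Of 11 genes in the list of BMP ligands 1 was higher, Bmp4 (1.41), and 2 were lower, Bmp8a (−1.58) and Bmp2 (−0.40). Of 21 BMP receptors and inhibitors 6 were higher and 3 lower, with Nog (2.01) higher and Sostdc1 (−2.51) lower. Of 10 BMP effectors and targets 1 was higher, Smad9 (0.77), and 4 were lower, among them Smad5 (−0.35) and Smad4 (−0.18). In the natriuretic peptide system 0 of 9 were higher and 3 lower, namely Prkg2 (−1.94), Mme (−0.99) and Pde2a (−0.61). Of the autophagy partners 5 were higher and 1 lower, with Gabarap (0.47), Vmp1 (0.50) and Gabarapl1 (0.53) higher. Of 19 genes of adipocyte size and caveolae 1 was higher, Fgf1 (1.71), and 3 were lower, among them Col6a3 (−1.04) and Lox (−0.90).

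Of the 137 list genes tested for genotype in males 6 were higher (4.38%) and 2 lower (1.46%) in KO, beside 2.62% and 1.34% of all genes. Inhbb (0.65, adjusted p = 0.0559), Mme (0.63, adjusted p = 0.0400), Atg12 (0.29, adjusted p = 0.0491), Gabarapl2 (0.29, adjusted p = 0.0516), Ctnnb1 (0.23, adjusted p = 0.0940) and Hif1a (0.21, adjusted p = 0.0770) were higher in KO. Smad7 (−0.55, adjusted p = 0.0614), an inhibitor of BMP and TGF-beta signalling, and Ide (−0.47, adjusted p = 0.0382), which encodes insulin-degrading enzyme, were lower. These 8 genes were all that passed in the 8 lists.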

How the data were processed

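RNA sequencing of VAT, SAT and liver was examined in 62 libraries. The authors prepared stranded TruSeq libraries, aligned them with STAR (2.5.3a in the submitters' processing notes) to GRCm38 with Gencode M11, and deposited raw gene counts, not normalized. Which strand column was kept is not given in the sources used here. Libraries were grouped by their labels alone. Counts were fitted with edgeR 4.0.16 in R 4.3.3 (TMM, filterByExpr, quasi-likelihood test, Benjamini-Hochberg over all genes, FDR 10%), without the RNA quality, extraction delay and hidden factors of the study's model, which the labels do not give. SE is the log2 fold change over the square root of F. CPM used TMM library sizes, log2 CPM a prior count of 2, and TPM the merged exon length in GENCODE M21. Scripts were tested on simulated counts.

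The members and gene lists were chosen with earlier results of these data known. Named genes are the members, up to 3 per list and comparison with the smallest p-values past the threshold, the 3 of highest r with each member, and the members' close relatives. A list gene that this rule also names is not reported here. Alternatives were DESeq2 1.42.0, limma-voom 3.58.1, 6 surrogate variables (sva 3.50.0), other normalizations and filters, an FDR of 5%, marker scores and lane as covariates, subsets of libraries, and each library left out. Leaving out libraries with lymph node markers over 100 CPM, with muscle or epididymis markers over 1000 CPM, or with over 10% ribosomal RNA was chosen after seeing the data, as was the correlation without male chow SAT.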

Additional observations from a re-analysis of the deposited data

Results flagged for a closer look

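Among 62 sets of 4 libraries (a gene in a group), 2 had a library far from the other 3 by Dixon's test, where chance gives about 1 in 20. Mest was 4.54 CPM in male HFD liver WT replicate 1, against 2.66 to 2.88 CPM in the other 3. Trp53inp2 was 638 CPM in male HFD VAT KO replicate 4, against 482 to 504 CPM in the other 3. The diet difference of Npr3 was smaller in VAT than in SAT by a test of the difference itself (log2 interaction −1.52, adjusted p = 0.0411, edgeR's quasi-likelihood test), and Npr3 was lower on chow than on HFD in both depots.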

How the results depend on the processing

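No paired analysis was possible because the labels carry no replicate numbers and do not link the tissues of 1 mouse. The replicate numbers printed here follow sample order and name no mouse. Numbers below are members called, of 5 (3 in liver), with edgeR unless another tool is named. For diet in VAT the count of 3 became 0 in KO libraries alone and 1 without libraries rich in ribosomal RNA. For diet in SAT the count of 5 became 3 with the lymph node score, 0 in KO alone, and 2 without either the lymph node libraries or those rich in ribosomal RNA. For diet in liver the count of 1 became 0 at an FDR of 5%, with at least 10 counts in every library, and in WT alone. For depot in males the count of 1 became 0 at an FDR of 5%, on chow alone and without the muscle or epididymis or the ribosomal RNA libraries, 2 with the lymph node score, 3 without the lymph node libraries and 5 on HFD alone. There Mest (−0.45) and Sfrp5 (−0.38) turned from positive to negative. Trp53inp2 for diet in SAT was −0.15 without the lymph node libraries. For depot in females the count of 0 became 1 with the lymph node score. For diet by depot the count of 1 became 2 with DESeq2, 3 with limma-voom, and 0 with either marker score and without the lymph node or the ribosomal RNA libraries. For genotype in males the count of 0 became 1 with DESeq2, and for genotype by diet in SAT 3 with DESeq2 and 1 with 6 surrogate variables. For genotype in SAT the count of 1 became 0 at an FDR of 5%, with upper-quartile scaling, with no filter, with either marker score or lane as covariate, in either sex alone, and without the other flow cell, lymph node, muscle or epididymis, or ribosomal RNA libraries. For sex in SAT the count of 1 became 0 at an FDR of 5%, with upper-quartile scaling, with no filter, and without the other flow cell, lymph node, or muscle or epididymis libraries, and 2 with either marker score and without the ribosomal RNA libraries. For sex in VAT the count of 3 became 0 with the adipocyte score. Fewer libraries entered each of the subset fits, and for the other settings the cause was not tested.

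Over the fits that each dropped a single library (leave-one-out), the count ranged from 2 to 5 for diet in VAT (5 without male chow VAT KO replicate 3), 0 to 1 for diet in liver, 0 to 1 for each depot difference, 1 to 4 for diet by depot, 0 to 1 for genotype in males (1 without male chow SAT KO replicate 4), 0 to 1 for genotype in SAT, 0 to 4 for genotype by diet in SAT and 0 to 3 for sex in SAT (3 without female HFD SAT WT replicate 3). It stayed at 5 for diet in SAT.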
